A study of Arabidopsis thaliana with 36 samples.

Results

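The 150 genes described here were chosen by when their mRNA was high in rosette leaves of Arabidopsis thaliana kept in the dark. For each gene the mean log2(CPM + 1) was taken over the 4 hml1-2 and wild-type libraries of each condition, where CPM is the gene's count scaled to the library total. A mean level of 5 CPM or more at 72 h of darkness was required, which left 11712 of 28774 genes. The members are the 150 with the largest gap between the lower of their 48 h and 72 h means and the highest of their means in the other conditions (0 h, 6 h and 24 h of darkness, and 72 h more of the light cycle). These values chose the members, so they are given as a description with no test. The libraries of the third genotype, ivd1-2, had no part in the choice and carry the tests.

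The study compared 3 genotypes. The ivd1-2 mutant is affected in isovaleryl-CoA dehydrogenase, an enzyme of leucine breakdown, the hml1-2 mutant is affected in hydroxymethylglutaryl-CoA lyase, which ends the same pathway, and WT is the wild type (stock CS60000). All plants had grown for 5 weeks in days of 8 h of light and 16 h of dark, and leaves 9 to 12 were taken at the start (0 h), after 6 h, 24 h, 48 h or 72 h of unbroken darkness, or after 72 h more of the light-dark cycle. Each of the 18 combinations has 2 RNA-seq libraries, 36 in all. The labels do not say whether the 2 libraries of a group came from separate plants, so the p-values measure only the spread between these libraries, which may be technical. They do not give the clock time of harvest either, but all conditions except 6 h of darkness lie whole days from 0 h, so only the 6 h harvest falls at another time of day.

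A leaf without light uses up its starch and sugars and then respires amino acids and lipids, and the branched-chain amino acids, leucine among them, feed electrons to the mitochondria under these conditions. Long darkness also brings on senescence, in which chlorophyll is taken apart and nutrients are exported under the control of NAC and WRKY transcription factors. Abscisic acid is a hormone of drought and senescence: its receptors hold back PP2C phosphatases, which frees kinases to activate bZIP transcription factors such as ABI5, and these bind ABRE elements (with a core of ACGTG) ahead of genes for dehydrins and related protective proteins.

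The libraries held 13638597 to 49398596 counts in genes. Levels below are CPM with library totals adjusted by the TMM method. The targeted gene IVD (isovaleryl-CoA dehydrogenase) was lower in ivd1-2 than in hml1-2 and WT in every condition, with 300 and 454 CPM at 72 h of darkness in ivd1-2, against 2048 and 2026 CPM in WT. HML1 stood at 46.4 to 68.5 CPM in the hml1-2 libraries and at 77.9 to 133 CPM in the WT libraries. The 2 ivd1-2 libraries at 72 h of darkness stood apart from each other. Their log2 CPM over all tested genes correlated at Pearson's r = 0.884, against 0.931 to 0.989 for the pairs of the other 17 groups. In replicate 1 of that group 34 of the 150 members were more than 4-fold above replicate 2, and 4 members were more than 4-fold below it. Results that rest on replicate 1 are marked below with their values without it. These are bulk leaf samples, in which fewer cells of a type and less RNA per cell cannot be told apart. The mesophyll marker RCA, the activase of the carbon-fixing enzyme, was detected in all 36 libraries. Summed CPM of the 4 mesophyll markers was 466 to 1300 at 48 h and 72 h of darkness and 3490 to 47100 in the other conditions. The 5 flower markers summed to 1.46 to 14.9 CPM at 48 h and 72 h of darkness and to 0.155 to 2.43 CPM elsewhere, with PI reaching 14.6 CPM and AP1 at 0 in 31 libraries. The 4 root markers summed to 14 to 62 CPM at 48 h and 72 h and to 6.59 to 41.8 CPM elsewhere. CASP1 was at 0 in 28 libraries and PYK10 in 23, while CASP2 reached 60.6 CPM and SHR 12.8 CPM. In ivd1-2 CASP2 rose at 24 h against 0 h (log2 change 5.46, adjusted p = 5.4e-05) and SHR fell at 72 h against 24 h (log2 change -2.56, adjusted p = 3.03e-05). Guard cell markers summed to 56.9 to 117 CPM late and 75.1 to 108 CPM elsewhere, phloem markers to 112 to 372 CPM late and 207 to 518 CPM elsewhere, and epidermis markers to 265 to 753 CPM late and 316 to 1400 CPM elsewhere. Their part in the results was not tested.

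Of the 150 members, 144 are protein-coding, 4 are microRNA genes and 2 are other non-coding RNAs. Sequences are shown for the microRNAs, whose mature products the annotation names, and for promoters of 4 members around the abscisic acid response. The mature microRNAs below come from the RefSeq annotation of TAIR10.1, and capitals mark bases 2 to 8, called the seed here. For MIR156c, MIR160c and MIR167a the annotation also names a product of the 3p arm, and only the 5p arm is shown. The sequences lie on chr2:11942918-11942938 (minus strand) for miR172a, chr4:15415491-15415510 (minus) for miR156c-5p, chr5:19009158-19009178 (minus) for miR160c-5p and chr3:8108090-8108110 (plus) for miR167a-5p.
miR172a: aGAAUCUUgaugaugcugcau
miR156c-5p: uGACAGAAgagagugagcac
miR160c-5p: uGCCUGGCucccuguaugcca
miR167a-5p: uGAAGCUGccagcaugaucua
No 2 of the 4 share a seed. In Arabidopsis miR172 acts on APETALA2-type regulators of flowering, miR156 on SPL genes, and miR160 and miR167 each on a set of auxin response factors.

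The promoter windows are the 250 bases before the annotated start of each gene in the same build, written 5′ to 3′ on the gene's strand. Capitals mark the G-box CACGTG and the ABRE forms ACGTGGC and ACGTGTC, searched on both strands, with overlapping matches run together. The window of LTI65 is chr5:21236771-21237020 (plus strand), that of ABI5 is chr2:15207637-15207886 (minus), that of NAC019 is chr1:19698483-19698732 (minus) and that of HAI1 is chr5:23896940-23897189 (minus).
LTI65: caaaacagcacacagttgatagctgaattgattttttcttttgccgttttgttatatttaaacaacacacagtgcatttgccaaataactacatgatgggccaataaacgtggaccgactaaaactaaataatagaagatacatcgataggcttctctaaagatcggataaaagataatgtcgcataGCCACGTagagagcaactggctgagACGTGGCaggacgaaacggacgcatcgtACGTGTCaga
ABI5: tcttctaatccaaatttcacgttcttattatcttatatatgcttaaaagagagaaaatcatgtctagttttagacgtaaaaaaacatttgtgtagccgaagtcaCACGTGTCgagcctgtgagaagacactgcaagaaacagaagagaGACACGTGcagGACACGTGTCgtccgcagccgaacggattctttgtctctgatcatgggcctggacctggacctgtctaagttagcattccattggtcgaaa
NAC019: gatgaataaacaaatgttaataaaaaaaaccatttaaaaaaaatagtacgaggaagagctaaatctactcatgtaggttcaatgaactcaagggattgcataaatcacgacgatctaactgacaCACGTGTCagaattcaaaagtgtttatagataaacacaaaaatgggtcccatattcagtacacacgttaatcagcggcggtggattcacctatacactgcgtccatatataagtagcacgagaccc
HAI1: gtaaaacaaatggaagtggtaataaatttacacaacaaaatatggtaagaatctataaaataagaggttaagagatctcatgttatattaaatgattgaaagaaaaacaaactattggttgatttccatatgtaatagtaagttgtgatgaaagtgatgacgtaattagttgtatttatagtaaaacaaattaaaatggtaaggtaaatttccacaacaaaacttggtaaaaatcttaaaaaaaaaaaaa
ABI5 is the bZIP factor of abscisic acid signalling, LTI65 (RD29B) is a dehydration protein, NAC019 is a senescence regulator and HAI1 is a PP2C phosphatase of the same hormone pathway. The HAI1 window holds none of the searched forms, which says only that these letters are not in it.

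Across all members the G-box was found in 23 of 144 promoter windows (16%), against 7.49% of the windows of all 19053 tested genes with one and 6.49% of all 27444 annotated windows. ABRE forms were found in 26 member windows (18.1%), against 7.43% of tested genes. A G-box and an ABRE form can overlap, as in CACGTGTC, so the counts are not independent. The W-box TTGACC, bound by WRKY factors, stood in 16 member windows (11.1%), against 12.2% of tested genes, and TGACG, a core bound by bZIP factors, stood in 34 (23.6%), against 19.3%. These shares describe the windows and were not tested.

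In the values that chose the members, the gap ran from 0.993 to 3.21 on the log2(CPM + 1) scale. The last members inside the threshold were NIT3 (0.997), AT2G45920 (0.994) and AT3G21540 (0.993), and the next genes outside it were AT1G72700 (0.991), AT4G20320 (0.988) and AT3G60150 (0.984). The members were already higher at 24 h than at 0 h in many cases, so the name late-rising is used below in the sense of the rule: their highest levels came at 48 h and 72 h. In ivd1-2 the median member had a level of 1.28 CPM (0 h), 4.24 (6 h), 5.03 (24 h), 15.3 (48 h) and 29.8 (72 h). At the same times the medians were 1.01, 2.98, 5.93, 25.4 and 25 CPM in hml1-2 and 0.948, 2.64, 5.49, 15.8 and 23 CPM in WT. After 72 h more of the light cycle they were 1.13 CPM in ivd1-2, 1.12 in hml1-2 and 0.755 in WT, close to the 0 h values. The plot of mean member level by library shows the same steps, and that they are not confined to 48 h and later.

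**Figure D1:**
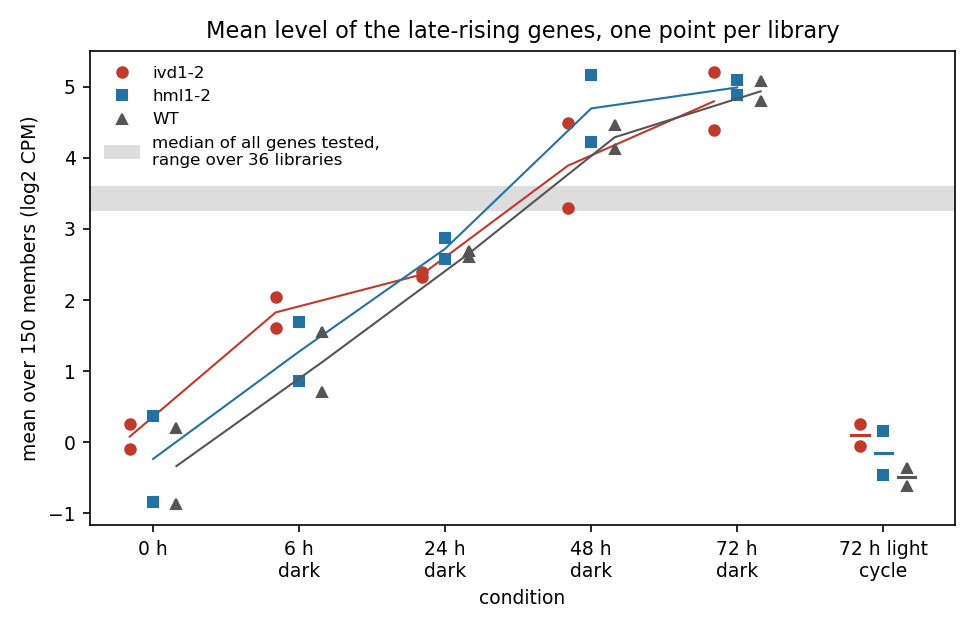
Mean log2 CPM of the 150 members in each of the 36 libraries (points), by condition and genotype; the grey band is the range over libraries of the median of all genes tested. The range of the members' mean was -0.868 to 0.363 at 0 h, 2.32 to 2.87 by 24 h and 4.39 to 5.21 after 72 h of darkness, while the median of all genes stayed between 3.27 and 3.59.

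The late rise was seen in ivd1-2, the genotype the choice did not use. At 72 h against 24 h of darkness, 106 of the 150 members rose (70.7%) and none fell (quasi-likelihood test of edgeR, p adjusted by Benjamini-Hochberg and under 0.05), where 16.1% of all 19457 tested genes rose and 20.8% fell. Over all genes that is 3141 higher and 4055 lower, against 4432 higher and 3604 lower by DESeq2 with its own size factors. The log2 change was positive in 148 members, with a median of 2.28 and a range of -0.54 to 8.74, against a median of -0.071 over all genes. Both 72 h libraries lay above both 24 h libraries in 137 members (91.3%), 103 of them among the 106, where the same held for 22.6% of all tested genes. Without replicate 1 at 72 h, 73 of the 106 still rose (8.16% of all genes did), without replicate 2 at 72 h, 94 did (23.6%), without replicate 1 at 24 h, 72 did (7.92%) and without replicate 2 at 24 h, 73 did (9.04%). In each of those 4 fits 49 members rose.

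At 48 h against 24 h, 34 members rose (22.7%) and none fell, where 1.3% of all genes rose and 4.54% fell (252 and 884 genes, against 806 and 1135 by DESeq2), and 149 of the 150 log2 changes were positive, with a median of 1.66. That count leaned on single libraries: it was 4 with either replicate of 24 h left out in turn, 6 without replicate 1 at 48 h and 1 when the fit held only ivd1-2 libraries. At 72 h against 48 h, 13 members rose (8.67%), near the 5.11% of all genes that rose, and the median log2 change was 0.74. None of these 13 calls remained without replicate 1 at 72 h, without replicate 1 or replicate 2 at 48 h, or in the fit of ivd1-2 libraries alone.

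At 72 h of darkness against 72 h more of the light cycle, 140 members rose (93.3%) and none fell, where 31.7% of all genes rose and 32.1% fell. All 106 members that rose between 24 h and 72 h of darkness were among these 140. The median log2 change was 5.18, against 0.011 over all genes. Within the light cycle itself, 72 h more against 0 h, no member passed and 0% of all genes passed in either direction (at an unadjusted p under 0.05, 4 members were higher and 4 lower, of 69 and 168 genes in all; DESeq2 called 0 genes higher and 1 lower).

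The early hours were not flat. At 24 h against 0 h, 82 members rose in ivd1-2 (54.7%) and none fell, where 24.5% of all genes rose and 23.3% fell, with a median log2 change of 2.02. At 6 h against 0 h, 58 members rose (38.7%), where 18.9% of all genes rose, and 3 members fell (20.6% of all genes did). That comparison also spans 2 times of day, and the effects of these and of darkness cannot be told apart in it. The 3 that fell, named after their values were seen, were arpc2b (log2 change -1.58), NRP2 (-0.85) and ECB2 (-1.43). Without replicate 1 at 0 h the 24 h count was 51 and the 6 h count was 38. Of the 106 members that rose at 72 h against 24 h, 59 had also risen at 24 h against 0 h and 47 had not passed there, and 40 of them passed at neither 6 h nor 24 h. A further 23 members passed at 24 h against 0 h and not at 72 h against 24 h, 21 passed in neither, and 9 rose in none of the 7 comparisons within ivd1-2.

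**Figure D2:**
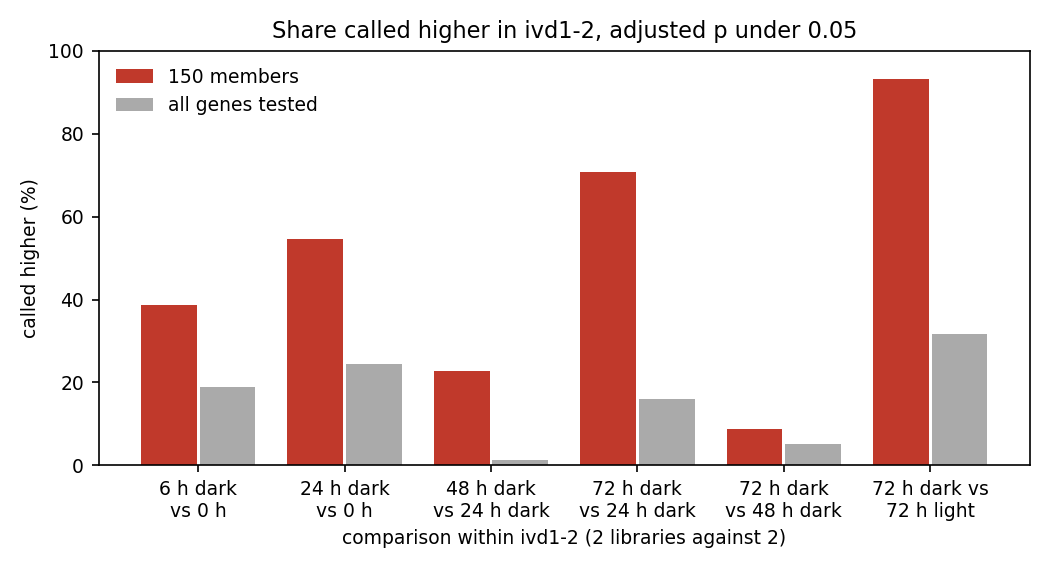
Percentage of genes that rose in each ivd1-2 comparison (adjusted p under 0.05) among the 150 members and among all 19457 tested genes. The members' share was 70.7% at 72 h against 24 h and 93.3% against the light cycle, with 16.1% and 31.7% for all genes, and the shares were closest at 72 h against 48 h, with 8.67% and 5.11%.

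The abscisic acid members include the pathway's phosphatases, its transcription factors and its protective proteins. ABI5 had CPM of 0 and 0.0663 (0 h), 2.21 and 2.56 (6 h of darkness), 2.73 and 2.52 (24 h), 7.46 and 11.4 (48 h), 5.73 and 10.9 (72 h), and 0.0272 and 0.0373 (light cycle) in ivd1-2. In hml1-2 it had CPM of 0.0357 and 0.0599 (0 h), 3.66 and 2.86 (6 h of darkness), 3.1 and 4.77 (24 h), 12.8 and 14.4 (48 h), 10.6 and 22.1 (72 h), and 0.03 and 0.148 (light cycle). In WT it had CPM of 0.0636 and 0.0776 (0 h), 3.26 and 3.94 (6 h of darkness), 4.53 and 4.86 (24 h), 8.08 and 15.3 (48 h), 14.6 and 28 (72 h), and 0.0504 and 0.0299 (light cycle). Every library at 48 h and 72 h of darkness lay above every earlier and light-cycle library, and a first step up had been made by 6 h. In ivd1-2 ABI5 rose at 6 h against 0 h (log2 change 6.62, SE 0.78, adjusted p = 1.07e-06), again at 48 h against 24 h (log2 change 1.84, adjusted p = 0.0173) and at 72 h against 24 h (log2 change 1.66, SE 0.45, adjusted p = 0.00681). The last of these did not pass without replicate 2 at 24 h (adjusted p = 0.0507), and the 48 h call did not pass without replicate 2 at 48 h (adjusted p = 0.0886) or without replicate 1 or 2 at 24 h (adjusted p = 0.0948 and 0.128).

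LTI65, whose promoter window holds 3 ABRE forms, had CPM of 0.268 and 0.0663 (0 h), 1.47 and 1.525 (6 h of darkness), 2.1 and 1.51 (24 h), 7.22 and 9.205 (48 h), 11 and 25.6 (72 h), and 0.245 and 0.6715 (light cycle) in ivd1-2. The hml1-2 libraries had CPM of 0.393 and 0.239 (0 h), 4.12 and 3.36 (6 h of darkness), 7.16 and 10 (24 h), 66.25 and 69.85 (48 h), 77.05 and 159 (72 h), and 0.42 and 0.641 (light cycle). The WT libraries had CPM of 0.477 and 0.31 (0 h), 1.84 and 3.73 (6 h of darkness), 7.29 and 8.35 (24 h), 34.6 and 46.7 (48 h), 155 and 125 (72 h), and 0.126 and 0.419 (light cycle). Its level went up at each step in the dark in the mean of every genotype, and both 72 h libraries of ivd1-2 lay below all 4 of hml1-2 and WT. In ivd1-2 it rose at 72 h against 24 h (log2 change 3.34, SE 0.48, adjusted p = 4.31e-05), and this held without each of the 4 libraries. RAB18, a dehydrin, had 149 and 307 CPM at 72 h and 155 and 79 at 24 h in ivd1-2 (log2 change 0.96, adjusted p = 0.104). At 72 h it had 544 and 1231 CPM in hml1-2 and 1050 and 1081 in WT, above every other library of the series. RAB18 had risen in ivd1-2 at 24 h against 0 h (log2 change 3.68, adjusted p = 5.04e-06), with 155 and 79 CPM at 24 h and 13 and 4.9 CPM at 0 h.

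**Figure D3:**
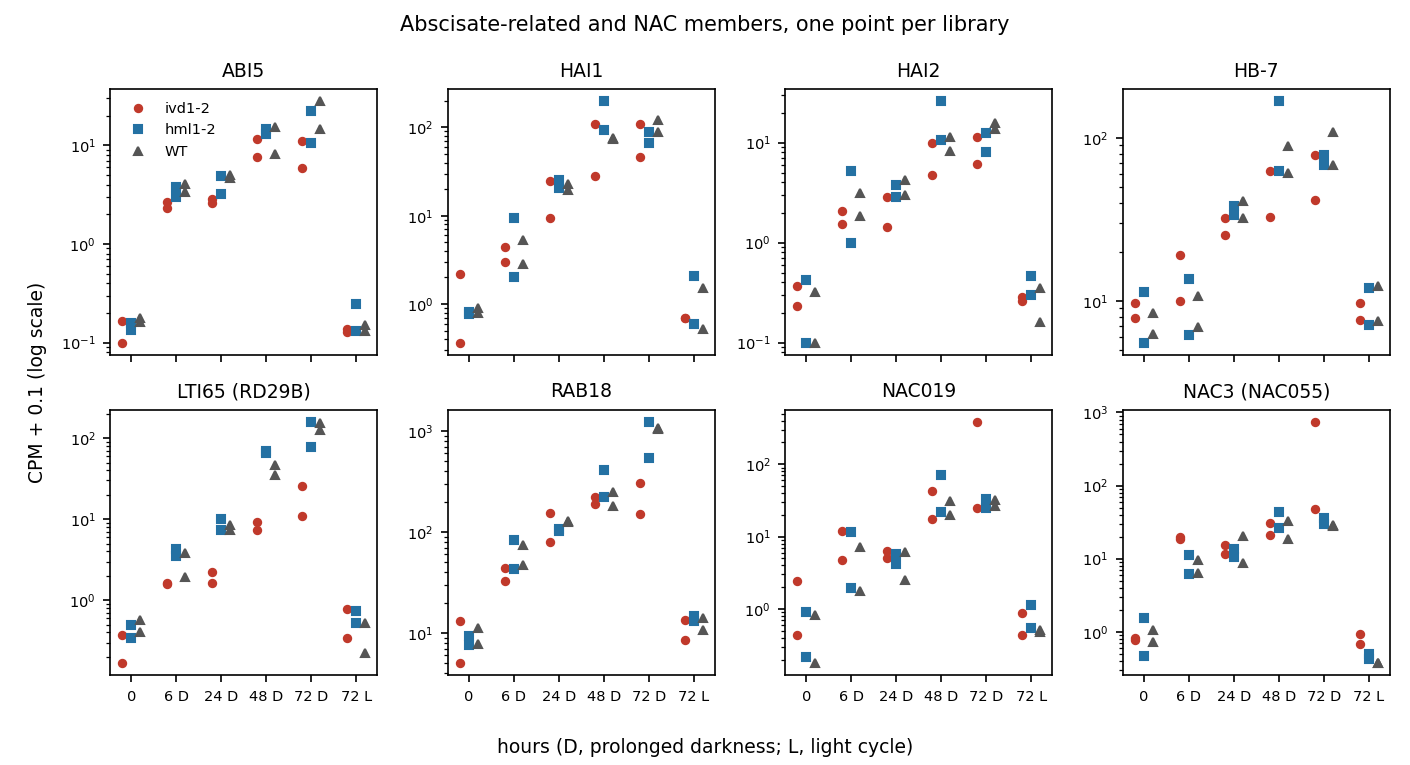
CPM (plotted as CPM + 0.1 on a log axis) of 6 members of the abscisic acid response and of NAC019 and NAC055 in each library, by condition and genotype. At 72 h of darkness LTI65 stood at 11 and 25.6 CPM in ivd1-2, at 77 and 159 CPM in hml1-2 and at 155 and 125 CPM in WT, while HAI1 overlapped between the genotypes.

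The PP2C phosphatases HAI1 and HAI2 act as brakes on abscisic acid signalling. HAI1 had 109 and 46.5 CPM at 72 h, against 24.9 and 9.43 CPM at 24 h in ivd1-2 (log2 change 2.18, SE 0.75, adjusted p = 0.0271). HAI2 had 11.4 and 6.05 CPM at 72 h, against 2.79 and 1.32 CPM at 24 h (log2 change 2.09, SE 0.73, adjusted p = 0.0308). In both genes the later pair lay above the earlier pair with no overlap. Neither passed without replicate 1 at 72 h (adjusted p = 0.233 for HAI1 and 0.195 for HAI2) or replicate 2 at 24 h (0.186 for both), and HAI2 did not pass without replicate 1 at 24 h (0.0577). HB-7, a homeodomain factor induced by water deficit, had 78.4 and 41.5 CPM at 72 h and 25.1 and 31.9 CPM at 24 h (log2 change 1.07, adjusted p = 0.0874). AT4G25580, annotated as a CAP160 protein like LTI65, made the largest rise of the members at 24 h against 0 h in ivd1-2, with 139 and 128 CPM at 24 h and 0.0535 and 0 CPM at 0 h (log2 change 11.6, SE 1.88, adjusted p = 3.59e-05). Its 0 h level was near 0, so the size of that fitted change depends on the prior count.

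At 72 h against 24 h in ivd1-2, 16.1% of all tested genes rose and 20.8% fell. Of 17 tested genes in a list of abscisic acid synthesis and signalling, 5 rose and none fell, with a median log2 change of 0.64. Of the 5, 3 are members (HAI1, HAI2 and ABI5), which were chosen for such a rise. The other 2 were AAO3, the oxidase of the last step of synthesis (1.39), and ABF4, a bZIP factor (0.64). Without replicate 1 at 72 h, 3 of 18 tested genes rose, and without replicate 2, 9 of 19 rose. Of 12 genes for LEA and dehydration proteins 7 rose and 1 fell, with a median of 1.46. Besides LTI65 these were RD29A (2.86), LTI30 (3.35), LEA14 (2.04), COR47 (1.66), ERD10 (1.27) and LEA7 (6.49), and COR15A fell (-1.97). The median of this list was 1.59 without replicate 1 at 72 h and 1.42 without replicate 2. The fall of COR15A was called only with both 72 h libraries in the fit. At 24 h against 0 h, when 24.5% of all genes rose, 14 of the 17 abscisic acid genes rose and 1 fell, and 9 of the 12 protein genes rose and none fell. The 14 include CYP707A2 (3.95) and CYP707A4 (2.26), which break the hormone down, and the 1 that fell was ABA1 of its synthesis (-1.8).

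The senescence members are transcription factors and enzymes of leaf breakdown. NAC019 had CPM of 2.355 and 0.331 (0 h), 11.9 and 4.61 (6 h of darkness), 6.21 and 4.89 (24 h), 42.9 and 17.3 (48 h), 386 and 24.9 (72 h), and 0.79 and 0.336 (light cycle) in ivd1-2. Libraries of hml1-2 had CPM of 0.821 and 0.12 (0 h), 11.5 and 1.86 (6 h of darkness), 4.12 and 5.63 (24 h), 71.4 and 21.5 (48 h), 33.3 and 24.9 (72 h), and 1.05 and 0.444 (light cycle). Libraries of WT had CPM of 0.732 and 0.0776 (0 h), 7.03 and 1.65 (6 h of darkness), 2.45 and 6.07 (24 h), 31.1 and 19.9 (48 h), 32.1 and 26.1 (72 h), and 0.378 and 0.419 (light cycle). Replicate 1 of ivd1-2 at 72 h was far above every other library, and the remaining late libraries lay between 17.3 and 71.4 CPM, above all of the earlier ones. NAC019 rose at 72 h against 24 h in ivd1-2 (log2 change 5.21, SE 1.16, adjusted p = 0.00191), but not without replicate 1 at 72 h (log2 change 2.19, adjusted p = 0.131).

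NAC055 (AT3G15500, also listed under the symbol NAC3) had CPM of 0.669 and 0.729 (0 h), 19.7 and 18.3 (6 h of darkness), 11.3 and 15.4 (24 h), 31.1 and 20.8 (48 h), 744 and 47.1 (72 h), and 0.572 and 0.821 (light cycle) in ivd1-2. In hml1-2 it had 35.4 and 30.1 CPM at 72 h and 10.3 and 13.4 CPM at 24 h, and in WT 28.8 and 27.8 CPM at 72 h and 8.7 and 20.2 CPM at 24 h. It rose in ivd1-2 at 6 h against 0 h (log2 change 4.77, adjusted p = 0.000165) and at 72 h against 24 h (log2 change 4.88, SE 0.79, adjusted p = 0.000137), and the later call held without each library. The NAC055 rise at 72 h against 48 h (log2 change 3.93, adjusted p = 0.00845) did not pass without replicate 1 at 72 h (adjusted p = 0.677) or without replicate 1 or 2 at 48 h (adjusted p = 0.0508 and 0.11).

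WRKY75, which promotes leaf senescence, had CPM of 0.803 and 0.663 (0 h), 0.798 and 5.37 (6 h of darkness), 0.3165 and 1.22 (24 h), 4 and 0.43 (48 h), 327 and 3.88 (72 h), and 1.47 and 0.634 (light cycle) in ivd1-2. At 72 h it had 15.8 and 6.12 CPM in hml1-2 and 7.34 and 6.6 CPM in WT. A single ivd1-2 library, replicate 1 at 72 h, stood far above all of the others. The rise at 72 h against 24 h (log2 change 7.72, SE 1.8, adjusted p = 0.00267) did not pass without that library (log2 change 2.34, adjusted p = 0.303), nor did the rise against the light cycle (adjusted p = 0.282). Further NAC members, chosen after their values were seen, had closer replicates at 72 h. NAC047 had 49.7 and 54.85 CPM at 72 h and 6.7 and 14.8 CPM at 24 h (log2 change 2.28, adjusted p = 0.0219). NAC053 had 140 and 65.3 CPM at 72 h and 34.3 and 26.8 CPM at 24 h (log2 change 1.75, adjusted p = 0.00349). The first did not pass without replicate 1 at 24 h (adjusted p = 0.173), and the second not without replicate 1 at 72 h (adjusted p = 0.0906).

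NYE2 (AT4G11910), a STAY-GREEN protein of the family that starts chlorophyll breakdown, had CPM of 0.455 and 0.265 (0 h), 3.19 and 4.94 (6 h of darkness), 2.68 and 5.28 (24 h), 19.4 and 3.53 (48 h), 21.6 and 12.6 (72 h), and 0.245 and 0.634 (light cycle) in ivd1-2. Its 72 h libraries lay above its 24 h libraries, and replicate 2 at 48 h lay between the 24 h values. NYE2 rose at 72 h against 24 h (log2 change 2.1, SE 0.71, adjusted p = 0.0248), but not without replicate 1 at 72 h (adjusted p = 0.155) or replicate 1 at 24 h (adjusted p = 0.174). PES2, an enzyme that esterifies phytol from broken-down chlorophyll with fatty acids, had 252 and 19.2 CPM at 72 h, against 10.7 and 22.05 CPM at 24 h (log2 change 3.05, SE 0.95, adjusted p = 0.0168). Only replicate 1 at 72 h lay above the 24 h libraries: without it the log2 change was 0.26 (adjusted p = 0.877), and the rise did not pass without replicate 1 at 24 h (adjusted p = 0.127).

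Lists of leaf breakdown differed in their counts at 72 h against 24 h in ivd1-2, where 16.1% of all tested genes rose and 20.8% fell. Of 19 senescence regulators 12 rose and none fell, with a median log2 change of 2.13. Besides the 3 members, chosen for such a rise, they include ATAF1 (3.01), NAC087 (5.18), WRKY6 (3.34), NAC046 (3.17) and RD26 (1.39). Without replicate 1 at 72 h, 3 of the 19 rose, with a median of 1.10. Of 8 chlorophyll breakdown genes 4 rose and 1 fell: NYE1 (1.26), NYC1 (1.75) and PPH (0.92) rose beside NYE2, and RCCR fell (-0.49). Without replicate 1 at 72 h, 1 rose and none fell. Of 13 lipid breakdown genes 10 rose and none fell, among them MFP2 of peroxisomal beta-oxidation (1.65) and PES1 (3.37), and 2 rose without replicate 1. Of 10 senescence proteases and nucleases none passed by edgeR, with a median log2 change of 0.97. At an unadjusted p under 0.05, 3 of them were higher and none lower, and DESeq2 called 2 higher. Without replicate 1 at 72 h, 0 of 12 tested rose and 2 fell, and without replicate 2 at 72 h, 5 of 12 rose. Of 10 genes listed as nitrogen remobilization enzymes 2 rose, GDH2 (2.95) and XDH1 (1), and 2 fell, ALN (-1.26) and ATUPS1 (-1.3). ATUPS1 is a ureide permease, so the list is not of enzymes alone. Of 15 nutrient export transporters 3 rose, among them SIAR1 (3.15), and 4 fell, among them SWEET13 (-7.33). Of 10 cell wall loosening genes 1 rose, XTH23 (5.38), and 4 expansins fell. The nitrogen enzymes had 1 higher and none lower without replicate 1 at 72 h, the transporters 2 higher and 1 lower, and the wall genes none higher and 3 lower. Without replicate 2 at 72 h the nitrogen enzymes had 4 higher and 1 lower. RD20, the only tested gene of the seed storage and oil body list, did not pass (log2 change 1.71, adjusted p = 0.118).

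At 72 h of darkness against the light cycle, 14 of the 19 regulators, 6 of the 8 chlorophyll genes and 12 of the 13 lipid genes rose, and 11, 6 and 9 did without replicate 1. Of the proteases and nucleases 4 of 10 rose, near the 31.7% of all tested genes that rose in this comparison. The median log2 change of that list was -0.082 without replicate 1.

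ACS2, which makes the precursor of ethylene, had CPM of 0.375 and 0.1325 (0 h), 0.522 and 1.83 (6 h of darkness), 0.604 and 0.24 (24 h), 15.8 and 1.72 (48 h), 243 and 14.7 (72 h), and 0.218 and 0.261 (light cycle) in ivd1-2. At 72 h it had 9.64 and 3.4 CPM in hml1-2 and 11.1 and 3.455 CPM in WT. It was below 2 CPM in every library at 0 h, 6 h and 24 h and of the light cycle, and both ivd1-2 libraries at 72 h lay above those of the other genotypes at that time. ACS2 rose at 72 h against 24 h (log2 change 8.26, SE 1.73, adjusted p = 0.00131), and this held without each of the 4 libraries. Of 13 ethylene genes 4 rose and none fell, with a median log2 change of 0.16, and 1 rose and 1 fell without replicate 1 at 72 h. The other 3 that rose were ACS6 (3.73), ERF1 (6.17) and ACS7, whose change has no firm size because it was near 0 at 24 h. Over all tested genes 16.1% rose and 20.8% fell at this step.

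The largest rises at 72 h against 24 h in ivd1-2 were those of CYP710A1, ACS2, MEA, WRKY75 and DIN2. CYP710A1, a sterol desaturase, had 456 and 3.99 CPM at 72 h, against 0.201 and 0.84 CPM at 24 h (log2 change 8.74, SE 2.36, adjusted p = 0.0074). It did not pass without replicate 1 at 72 h (log2 change 2.93, adjusted p = 0.344) or replicate 1 at 24 h (adjusted p = 0.0754), and its reads may be shared with CYP710A2, a close copy. MEA, a polycomb protein best known from the endosperm, had 44.5 and 5.27 CPM at 72 h, against 0.115 and 0.096 CPM at 24 h (log2 change 7.83, SE 1.4, adjusted p = 0.000363), and held without each library. AT2G17500, of the auxin efflux carrier family, had 425 and 9.19 CPM at 72 h and 22.9 and 3.7 CPM at 48 h in ivd1-2 (log2 change 4.03, adjusted p = 0.0343). Its log2 change was -0.57 without replicate 1 at 72 h (adjusted p = 0.939), and it did not pass without replicate 1 or 2 at 48 h either (adjusted p = 0.0637 and 0.243).

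DIN2, a beta-glucosidase named for its induction by darkness, headed the members by the gap that chose them, at 3.21. In ivd1-2 it had CPM of 5.91 and 0.1325 (0 h), 3.81 and 83.3 (6 h of darkness), 16.8 and 61.3 (24 h), 657 and 261 (48 h), 4705 and 2198 (72 h), and 0.0817 and 0.783 (light cycle). The hml1-2 libraries had CPM of 0.0714 and 0.0599 (0 h), 4 and 3.29 (6 h of darkness), 21.6 and 34 (24 h), 334 and 193 (48 h), 678 and 484 (72 h), and 0.15 and 2.81 (light cycle). The WT libraries had CPM of 0.159 and 0 (0 h), 17 and 0.692 (6 h of darkness), 14 and 24.85 (24 h), 144 and 197 (48 h), 284 and 475 (72 h), and 0.0756 and 3.59 (light cycle). Both ivd1-2 libraries at 72 h lay above every library of the other genotypes, and the ivd1-2 replicates differed widely at 0 h and at 6 h. DIN2 rose at 72 h against 24 h in ivd1-2 (log2 change 6.46, SE 1.6, adjusted p = 0.00409), though without replicate 1 at 24 h it did not pass (adjusted p = 0.0559), and it rose against the light cycle (log2 change 13.1, adjusted p = 2.02e-05).

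CCD7, a carotenoid cleavage enzyme of strigolactone synthesis, was the third by that gap. In ivd1-2 it had CPM of 0 and 0 (0 h), 0.0614 and 0.0915 (6 h of darkness), 0.23 and 0.504 (24 h), 6.525 and 1.16 (48 h), 10.3 and 4.69 (72 h), and 0 and 0 (light cycle). In hml1-2 it had CPM of 0 and 0 (0 h), 0.217 and 0 (6 h of darkness), 2.84 and 1.55 (24 h), 57.4 and 9.44 (48 h), 30 and 23.1 (72 h), and 0 and 0 (light cycle). In WT it had CPM of 0 and 0 (0 h), 0.0633 and 0 (6 h of darkness), 2.165 and 1.04 (24 h), 20.3 and 11.1 (48 h), 25.4 and 20.9 (72 h), and 0 and 0.0299 (light cycle). It was at 0 in all 6 libraries at 0 h and in 5 of the 6 of the light cycle, and both ivd1-2 libraries at 72 h lay below those of the other genotypes. In ivd1-2 CCD7 rose at 72 h against 24 h (log2 change 4.32, SE 0.99, adjusted p = 0.00349), and this held without each library. Its level at 72 h of darkness was at least 159-fold higher than after the light cycle, where both libraries were at 0, with 3 counts over the group taken as the floor.

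NIT2, a nitrilase, differed between replicates in every genotype. In ivd1-2 it had CPM of 45.5 and 0.1325 (0 h), 5.83 and 52.6 (6 h of darkness), 11.6 and 20.85 (24 h), 232 and 3.96 (48 h), 666 and 27.1 (72 h), and 2.89 and 10.3 (light cycle). At 72 h it had 227 and 35.6 CPM in hml1-2 and 240 and 43.7 CPM in WT. Replicate 1 was the higher in both late conditions of all 3 genotypes, and NIT2 did not pass at 72 h against 24 h in ivd1-2 (log2 change 4.42, adjusted p = 0.152). NIT3, one of the last members inside the threshold and a close copy that may share reads with it, had 15.95 and 7.75 CPM at 72 h, against 2.42 and 2.95 CPM at 24 h (log2 change 2.14, SE 0.31, adjusted p = 5.1e-05), and held without each library.

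The other members among the 10 with the widest gap carry a family name at most. AT5G16360 (NC domain family) had 57.8 and 22.4 CPM at 72 h, against 1.295 and 1.7 CPM at 24 h in ivd1-2 (log2 change 4.74, SE 0.69, adjusted p = 5.01e-05). AT2G03850 (LEA family) had 12.9 and 10.2 CPM at 72 h and 0.834 and 0.6 CPM at 24 h (log2 change 4.01, SE 0.9, adjusted p = 0.00262). Both held without each library. AT3G55890 (Yippee family) had 50.9 and 4.3 CPM at 72 h and 0.662 and 0.768 CPM at 24 h (log2 change 5.26, SE 0.93, adjusted p = 0.000291) and held as well, although its 72 h replicates differed widely. AT3G10320 (glycosyltransferase family 61) had 48.55 and 33.3 CPM at 72 h and 1.84 and 6.67 CPM at 24 h (log2 change 3.26, SE 1.05, adjusted p = 0.0202), and did not pass without replicate 1 at 24 h (adjusted p = 0.158) or replicate 1 at 72 h (0.0755). AT5G15500 (ankyrin repeat family) had 7.75 and 6.86 CPM at 72 h and 1.7 and 0.336 CPM at 24 h and did not pass (log2 change 2.86, adjusted p = 0.0764).

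The microRNA genes were counted as precursor transcripts, so the values say nothing directly of the mature forms shown above. They were chosen for description after their values were seen. MIR172a had CPM of 0.696 and 0.663 (0 h), 8.26 and 4.21 (6 h of darkness), 37.75 and 34.45 (24 h), 232 and 164 (48 h), 213 and 473 (72 h), and 0.545 and 0.6715 (light cycle) in ivd1-2. Libraries of hml1-2 had CPM of 1.39 and 0.539 (0 h), 10.2 and 7.52 (6 h of darkness), 52.65 and 53.2 (24 h), 271 and 242 (48 h), 327 and 499.5 (72 h), and 0.57 and 1.73 (light cycle). Libraries of WT had CPM of 0.7955 and 0.4655 (0 h), 8.67 and 5.86 (6 h of darkness), 62.6 and 58.7 (24 h), 223 and 231 (48 h), 240.4 and 432 (72 h), and 0.302 and 1.44 (light cycle). Each step in the dark up to 48 h left all earlier libraries behind, the ivd1-2 libraries lay below the others at 24 h, and the genotypes overlapped at 72 h. MIR172a rose in ivd1-2 at 24 h against 0 h (log2 change 5.71, SE 0.63, adjusted p = 2.7e-07) and at 72 h against 24 h (log2 change 3.25, SE 0.51, adjusted p = 0.000104).

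MIR160c had CPM of 0.0268 and 0 (0 h), 0.0307 and 0 (6 h of darkness), 1.06 and 0.6 (24 h), 12 and 3.44 (48 h), 4.72 and 8.26 (72 h), and 0.136 and 0.0746 (light cycle) in ivd1-2 (log2 change 2.96, SE 0.74, adjusted p = 0.0043 at 72 h against 24 h). MIR156c had 6.47 and 26.2 CPM at 72 h, against 3.19 and 5.71 CPM at 24 h (log2 change 1.87, SE 0.64, adjusted p = 0.0263). MIR167a had 4.79 and 15.35 CPM at 72 h, against 1.38 and 3.05 CPM at 24 h (log2 change 2.18, SE 0.65, adjusted p = 0.0135). In the last 2 genes replicate 2 was the higher at 72 h, the opposite of the genes above that rest on replicate 1. The 4 are 2.67% of the members, where 35 microRNA genes were 0.18% of all tested genes. The rise of MIR172a at 72 h against 24 h held without each library. That of MIR160c did not pass without replicate 2 at 24 h (adjusted p = 0.0541). That of MIR167a did not pass without replicate 1 of the 24 h pair or replicate 2 of the 72 h pair (0.127 and 0.131), and that of MIR156c not without replicate 1 or 2 at 24 h or replicate 2 at 72 h (0.17, 0.0514 and 0.38).

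**Figure D4:**
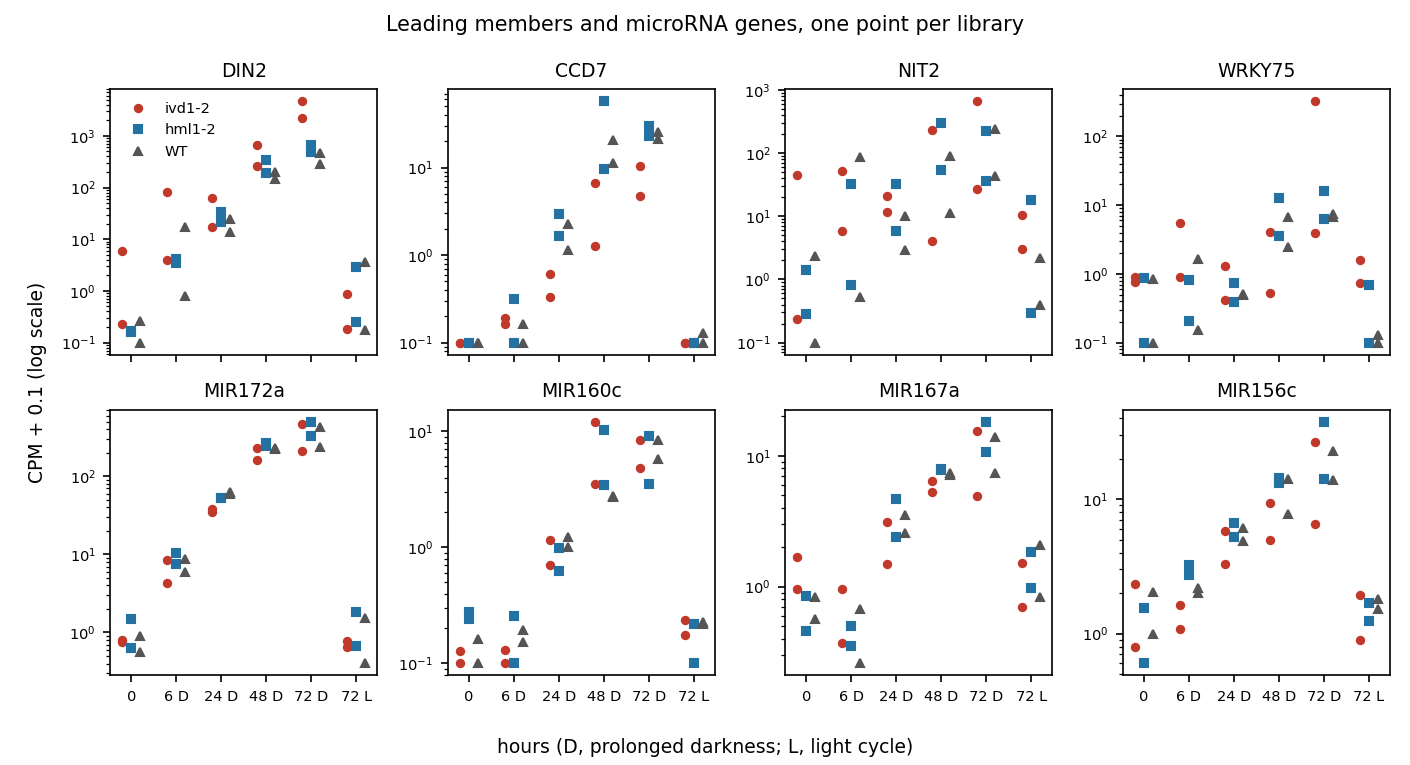
CPM (plotted as CPM + 0.1 on a log axis) of leading members and microRNA genes in each library, by condition and genotype. MIR172a stood at 213 and 473 CPM in ivd1-2 at 72 h of darkness and at 0.545 and 0.671 CPM after the light cycle, and DIN2 at 4705 and 2198 CPM in ivd1-2 at 72 h of darkness and at 0.082 and 0.783 CPM after the light cycle.

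Some members belong to the plant clock. The harvests compared for them here lie whole days apart. ELF4, which with PCL1 (LUX) and a further protein forms the evening complex, had CPM of 0 and 0 (0 h), 1.535 and 0.793 (6 h of darkness), 3.8 and 4.055 (24 h), 17.75 and 8.73 (48 h), 12.2 and 6.94 (72 h), and 0.0272 and 0 (light cycle) in ivd1-2. It was at 0 in both libraries at 0 h, and at 24 h it was at least 68.7-fold higher, with 3 counts over the group taken as the floor. Between 24 h and 72 h of darkness it did not pass (log2 change 1.28, adjusted p = 0.0536). PCL1 had CPM of 1.445 and 2.25 (0 h), 20.8 and 17.9 (6 h of darkness), 64.6 and 45.8 (24 h), 176 and 164 (48 h), 103 and 134 (72 h), and 1.31 and 2.015 (light cycle) in ivd1-2 and rose at 24 h against 0 h (log2 change 4.94, SE 0.46, adjusted p = 3.05e-08) and at 72 h against 24 h (log2 change 1.1, SE 0.38, adjusted p = 0.0272). CO, a flowering regulator under clock control, had 2.12 and 4.65 CPM at 72 h, against 1.84 and 1.27 CPM at 24 h (log2 change 1.12, adjusted p = 0.0302). PCL1 and CO were, like the microRNAs, named after their values were seen.

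CAT3, a catalase, is the most abundant member described here and was also named after its values were seen. In ivd1-2 it had CPM of 854 and 686 (0 h), 8463 and 10880 (6 h of darkness), 14430 and 10090 (24 h), 34180 and 22990 (48 h), 24560 and 26760 (72 h), and 972 and 649.7 (light cycle). In hml1-2 it had 42400 and 26840 CPM at 72 h and 12500 and 8847 CPM at 24 h, and in WT 38470 and 29320 CPM at 72 h and 10390 and 10370 CPM at 24 h. The main step came by 6 h, when CAT3 rose in ivd1-2 (log2 change 3.65, SE 0.41, adjusted p = 5.86e-07), and a smaller one followed at 72 h against 24 h (log2 change 1.07, adjusted p = 0.0304). TPX2, a peroxide-reducing thioredoxin peroxidase with close copies, had CPM of 0.214 and 0.265 (0 h), 9.025 and 134 (6 h of darkness), 126 and 286 (24 h), 576 and 676 (48 h), 724 and 607 (72 h), and 0.218 and 2.09 (light cycle) in ivd1-2. It rose at 24 h against 0 h (log2 change 9.77, SE 1.65, adjusted p = 5.02e-05) and did not pass at 72 h against 24 h (log2 change 1.69, adjusted p = 0.213). GLYI4, a glyoxalase homologue, rose at both steps, with 1662 and 1008 CPM at 72 h, 84 and 97.6 CPM at 24 h and 0.348 and 0.199 CPM at 0 h (log2 change 3.88, SE 0.89, adjusted p = 0.00255 for 72 h against 24 h). MLP329 of the major latex protein family was at 0 at 0 h and at least 13.5-fold higher at 24 h. At 72 h against 24 h, PCL1, CO and CAT3 did not pass without replicate 2 at 24 h (adjusted p = 0.165, 0.177 and 0.163), nor CO without replicate 2 at 72 h (0.208), nor CAT3 without replicate 1 at 72 h (0.0749).

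Members of other functions, also named after their values were seen, include 2 precursors of phytosulfokine, a secreted peptide hormone. PSK2 had CPM of 0.99 and 1.79 (0 h), 10.8 and 11.7 (6 h of darkness), 4.92 and 5.85 (24 h), 70.4 and 28.1 (48 h), 51.7 and 77.9 (72 h), and 0.9535 and 0.634 (light cycle) in ivd1-2. It rose at 72 h against 24 h (log2 change 3.59, SE 0.56, adjusted p = 8.94e-05). PSK4 had 302 and 48.1 CPM at 72 h and 24.9 and 39.5 CPM at 24 h and did not pass (log2 change 2.44, adjusted p = 0.0817). CKX5, which breaks down cytokinin, had 36.3 and 37.1 CPM at 72 h and 10.6 and 6.26 CPM at 24 h (log2 change 2.13, SE 0.73, adjusted p = 0.0268). GPT2, which carries glucose-6-phosphate into plastids, had 157 and 7.75 CPM at 72 h and 2.16 and 1.49 CPM at 24 h (log2 change 5.5, SE 1.48, adjusted p = 0.00697). PSK2 held at that step without each library. GPT2 rested on replicate 1 at 72 h, without which its log2 change was 2.12 (adjusted p = 0.297), and it did not pass without replicate 1 or 2 at 24 h (0.0547 and 0.0641). CKX5 did not pass without replicate 1 at 72 h (adjusted p = 0.0773) or replicate 1 or 2 at 24 h (0.0674 and 0.156).

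Among signalling members, SOS3, a calcium sensor of salt tolerance, had CPM of 1.74 and 1.39 (0 h), 6.57 and 7.26 (6 h of darkness), 4.46 and 8.52 (24 h), 19.2 and 11.9 (48 h), 30.1 and 30.1 (72 h), and 3.02 and 2.13 (light cycle) in ivd1-2. It rose at 24 h against 0 h (log2 change 2.03, adjusted p = 2.48e-05) and at 72 h against 24 h (log2 change 2.21, SE 0.31, adjusted p = 3.13e-05). SNRK2-8, a kinase of the SnRK2 family, had 260 and 289.6 CPM at 72 h and 49.5 and 68.9 CPM at 24 h (log2 change 2.21, SE 0.48, adjusted p = 0.00156). It did not pass at 24 h against 0 h (log2 change -0.28, adjusted p = 0.65). SOS3 and SNRK2-8 held at 72 h against 24 h without each library. The heat shock factor HSFA6A had 3.61 and 7.6 CPM at 72 h, 2.93 and 1.8 CPM at 24 h and 0.0268 and 0.0663 CPM at 0 h. It rose with a log2 change of 5.77 at 24 h against 0 h (adjusted p = 2.53e-06) and of 1.24 at 72 h against 24 h (adjusted p = 0.0476). The second of these did not pass without replicate 1 or 2 at 24 h or replicate 2 at 72 h (adjusted p = 0.0603, 0.242 and 0.224). HSFA7A, of the same family, had 46.2 and 59.2 CPM at 72 h, 12 and 19.4 CPM at 24 h and 3.29 and 8.81 CPM at 0 h (log2 change 1.74, SE 0.45, adjusted p = 0.00516 for 72 h against 24 h). It did not pass at that step without replicate 1 at 24 h (adjusted p = 0.0647). TSPO, a membrane protein induced by abscisic acid, had 30.1 and 17.6 CPM at 72 h, 10.2 and 4.49 CPM at 24 h and 0.107 and 0 CPM at 0 h. It rose at 24 h against 0 h (log2 change 6.55, adjusted p = 6.37e-05) and did not pass at 72 h against 24 h (log2 change 1.7, adjusted p = 0.0647).

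**Figure D5:**
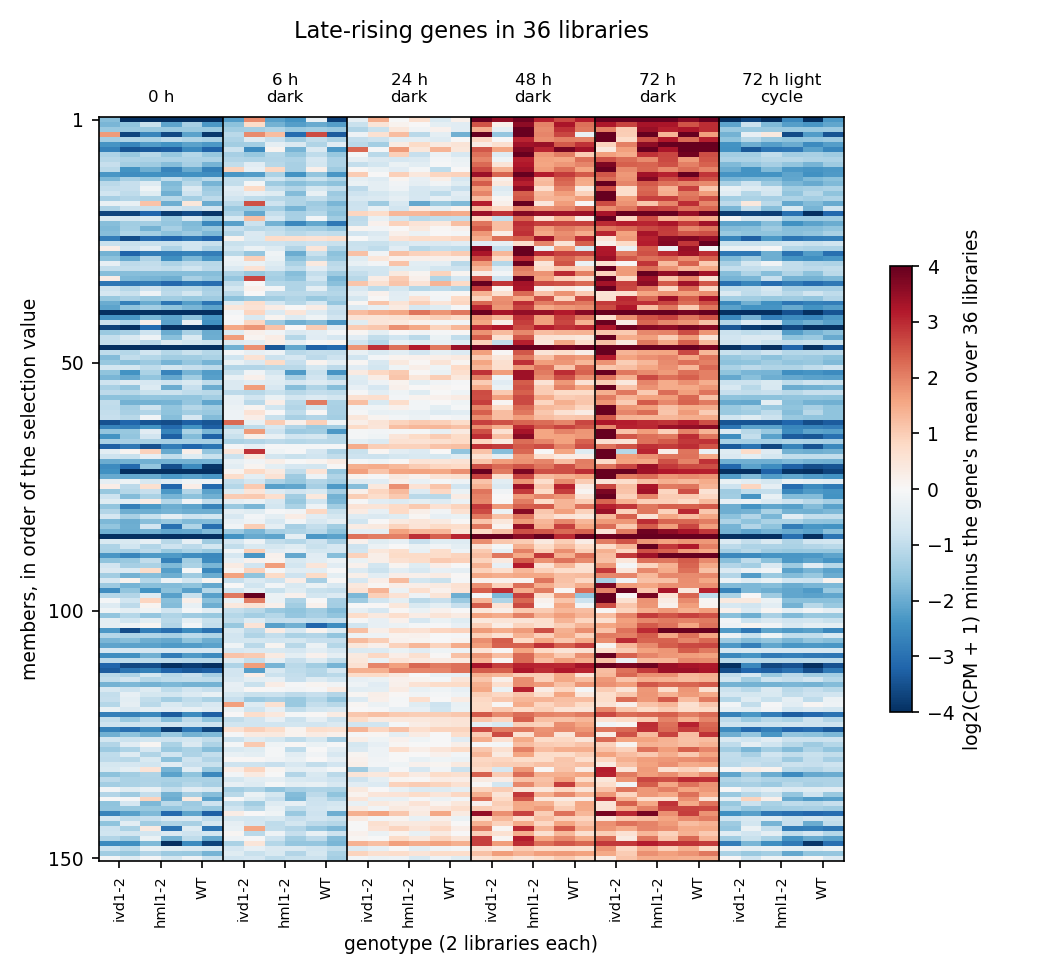
The log2(CPM + 1) of each of the 150 members (rows, widest gap at the top) in each of the 36 libraries (columns), minus the gene's mean over the libraries; blue is below and red above that mean, and colours stop at -4 and 4. Rows are mostly blue at 0 h and in the light cycle and red at 48 h and 72 h, and the first ivd1-2 column at 72 h holds darker cells than the second.

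The members with the lowest change at 72 h against 24 h in ivd1-2 did not repeat there what had chosen them. PBP1, a lectin that binds a beta-glucosidase, had 2.7 and 7.21 CPM at 72 h, against 4.63 and 9.76 CPM at 24 h (log2 change -0.54, adjusted p = 0.592), where at 72 h it had 19.3 and 19.2 CPM in hml1-2 and 31.7 and 25.6 CPM in WT. LTP2, a lipid transfer protein, had 14.8 and 35.7 CPM at 72 h and 56.7 and 10.4 CPM at 24 h (log2 change -0.41, adjusted p = 0.751), where at 72 h it had 197 and 111 CPM in hml1-2 and 482 and 178 CPM in WT. Both ivd1-2 libraries lay below the 4 others in each gene. SUS3, a sucrose synthase (log2 change 0.1, adjusted p = 0.862), CYS2, an inhibitor of cysteine proteases (log2 change 0.36, adjusted p = 0.504), and AOC1, of jasmonate synthesis (log2 change 0.5, adjusted p = 0.551), did not pass either. CYS2 had risen by 24 h, with 52.5 and 53.3 CPM, against 1.02 and 1.66 CPM at 0 h (log2 change 5.36, adjusted p = 4.51e-08).

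Since the members were chosen on hml1-2 and WT, the place of ivd1-2 against these is a description. At 48 h the mean of ivd1-2 was the lowest of the 3 genotypes in 90 members and the highest in 25. At 24 h it was the lowest in 88 and the highest in 36. At 72 h it was the lowest in 74 and the highest in 63, and at 6 h it was the highest in 95. These orders were not counted over all tested genes, so they cannot be told apart from differences between whole libraries. In hml1-2 against WT, also given with no test, the log2 change was positive in 120 of the 150 members at 48 h, with a median of 0.37, and in 83 at 72 h, with a median of 0.031. The medians over all genes were 0.0185 at 48 h and 0.0152 at 72 h. The direction of the members' median at 48 h changed when the first hml1-2 replicate was left out. The median was then -0.174. At 48 h replicate 1 was the higher in 121 members in hml1-2 and in 99 in WT. That fit thus set replicate 2 of hml1-2 against both WT replicates. With replicate number added to the fit as a block the median was 0.346. Dropping any other library of the comparison kept it positive, between 0.309 and 0.714. On the log2 CPM scale the mean member level at 48 h was 4.49 and 3.30 in ivd1-2, 5.17 and 4.22 in hml1-2, and 4.46 and 4.12 in WT. Replicate 1 of ivd1-2 at 48 h was above replicate 2 in 127 members, and its mean was above both WT libraries. The median log2 gap between these replicates was 0.972 over the members and -0.0149 over all genes. The low place of ivd1-2 at 48 h thus rests largely on its replicate 2. At 24 h the 2 ivd1-2 libraries were close to each other, at 2.32 and 2.40. Both lay below the libraries of hml1-2 (2.87 and 2.57) and WT (2.69 and 2.61) at that time.

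The members are spread over the genome, with 40, 27, 44, 14 and 25 on chromosomes 1 to 5, and chromosome 3 held 29.3% of them and 19.8% of all tested genes. By family, NAC factors made up 4 of the members (2.67%), where they were 0.278% of tested genes, and PP2C phosphatases 2 (1.33%, against 0.0668%). Cytochrome P450s made up 1.33% (against 0.653%), and no member was counted as an ERF factor, glutathione S-transferase or expansin. Families were matched by gene symbol alone, so genes listed under other names were missed. In 3 cases 2 members were neighbours in the annotation. GolS1 (galactinol synthase, chr2:19368798-19370478, minus strand) and MYB2 (a factor of dehydration and senescence, chr2:19375985-19377543, plus strand) lie 5506 bases apart. AT2G25770 and AT2G25780 lie 1442 bases apart, and AT5G13200 and AT5G13210 5665. In ivd1-2 GolS1 had 62.2 and 53.7 CPM at 72 h, against 18.1 and 23.6 CPM at 24 h (log2 change 1.47, SE 0.34, adjusted p = 0.0024). MYB2 had 57.3 and 29.4 CPM at 72 h and 2.91 and 6.38 CPM at 24 h (log2 change 3.22, SE 0.9, adjusted p = 0.00878). GolS1 held without each library, and MYB2 did not pass without replicate 1 at 24 h (adjusted p = 0.0938) or replicate 1 at 72 h (0.0547). Of the 150 members 30 overlap another counted gene, 28 of them on the opposite strand. The library kit keeps strand, but the sources used here do not give the counter's strand setting, so reads of such pairs may not be told apart. PES2, TPX2, AT3G55890, AT5G16360 and AT2G17500 are among them, as are RAB18, GolS1, CYS2, PCL1, CO, CKX5 and SNRK2-8.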

How the data were processed

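The authors deposited raw read counts per gene, 1 table for each of the 36 libraries. Per the labels' protocols, RNA of leaves 9 to 12 was made into libraries with a strand-keeping TruSeq kit. Per the submitters' processing notes, Trimmomatic 0.30, TopHat 1.4.1, SAMtools 0.1.19, Cuffdiff 2.1.1 and HTSeq were used with the TAIR10 genome, with no role or order stated; the sources used here do not state the counter's strand setting. Rows for reads in no gene were left out of library totals.

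The members and gene lists were chosen with earlier results of these data known. Counts were fitted with edgeR 4.0.16 (R 4.3.3): genes with at least 10 counts in enough libraries and 15 in total were kept (filterByExpr), which left 19457 genes, all 150 members among them, and removed genes with 0.0119% of the counts. Libraries were scaled by TMM, and 1 quasi-likelihood fit over all 36 libraries had 18 groups and 18 residual degrees of freedom. P-values were adjusted by the Benjamini-Hochberg method over all genes in each comparison, with 0.05 as the threshold and no minimum fold. Planned tests of hml1-2 against WT are left out, because those libraries chose the members. Standard errors are the log2 change divided by the square root of the F statistic. A fitted log2 change depends on a small prior count where a group is near 0, and against groups at 0 only a bound from 3 counts is given. Alternatives were DESeq2 1.42.0, its size factors in edgeR, other filters, a replicate block, a fit of the compared genotypes alone, and leaving out each library. Counts were simulated from the dispersions of the fit over all 36 libraries, with 200 of 19369 genes changed 4-fold between 72 h and 24 h in ivd1-2. The test recovered 85% of the changed genes and called 8 unchanged ones. The changed genes were drawn only from those above a minimum expected count, so the 85% does not cover genes with low counts. The simulated counts follow the model that the test assumes and lack the wide gap between the real 72 h libraries. They therefore do not show how the test behaves with that gap.

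Described were the 10 members with the widest gap, those at the threshold, members in the lists, the largest and lowest changes of the comparisons, and neighbours, and other genes are marked as chosen after their values were seen. Gene names, positions, promoter windows and microRNAs came from the RefSeq annotation of TAIR10.1, whose nuclear chromosomes are those of TAIR10; 28009 of 28774 gene codes matched. Counts set the precision: in the shallowest library, with 13638597 counts, 1 CPM is few reads, so levels under it are uncertain.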

Additional observations from a re-analysis of the deposited data

How the results depend on the processing

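The count of members that rose at 72 h against 24 h in ivd1-2, 106, and at 72 h of darkness against the light cycle, 140, stayed within 1.5 times of these values under every alternative run. At 48 h against 24 h the 34 members became 65 by DESeq2, 58 with the replicate block and 1 in a fit of ivd1-2 libraries alone. At 72 h against 48 h the 13 became 24 by DESeq2, 24 with the replicate block and 0 in the fit of ivd1-2 alone, and the 3 that fell at 6 h became 1 with no low-count filter. Leaving out 1 library at a time gave 72 to 109 members at 72 h against 24 h, 124 to 139 against the light cycle, 4 to 34 at 48 h against 24 h, 0 to 33 at 72 h against 48 h (0 to 1 lower), 51 to 67 at 24 h against 0 h, and 38 to 57 at 6 h against 0 h (1 to 2 lower). Of 210 such counts, those of hml1-2 against WT included, 190 stayed within 1.5 times and 20 moved. Many of them, such as the members that fell at 72 h against 24 h, were 0 in the main fit. A count of 0 that stayed 0 was scored as kept, so the 190 says little about the counts above 0. The 186 gene results tested gave 1917 values under the alternatives: 1684 kept direction and call, 232 kept direction and lost the call (182 of them with 1 library left out, 41 in a fit of the compared genotypes alone), and 1 reversed, AT2G17500 at 72 h against 48 h without replicate 1 of ivd1-2 at 72 h (its log2 change ran from -0.57 to 6.09 with 1 library left out). In all, 104 of the 186 kept their call under every alternative. The causes were not tested; a group left with 1 library is assumed to vary like the others, and such fits have less power.

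Same-numbered replicates had deviations over all genes that correlated at -0.135 to 0.477 between ivd1-2 groups and at 0.168 to 0.849 between hml1-2 and WT groups. Pairing is thus not shown for ivd1-2, which carries the tests, while every correlation was over 0.1 in hml1-2 and WT. The replicate block gave 95 members at 24 h against 0 h and 75 at 6 h, and with the numbers of the light-cycle group crossed, chosen after seeing a negative correlation, 145 rose against the light cycle. Scaling by DESeq2 size factors in place of TMM shifted the median of all genes by 0.13 on the log2 scale at 72 h against 24 h, and by at most 0.072 in the other comparisons. Depth limits the genes near 0 at the start of darkness, whose log2 changes are set partly by the prior count.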
